A study of Mus musculus with 10 samples.

Results

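Selenbp1, Selenbp2, Gm15264, Cgn and Tuft1 are 5 genes that lie within 332.0 kb of mouse chromosome 3, from chr3:94612757 to 94944758 on GRCm38. They were chosen by name and position, with their levels in these samples already known, and they are 5 of the 40620 genes in the deposited count table. RNA was sequenced from MC3T3-E1 subclone 4, a clonal mouse pre-osteoblast line grown from calvaria, at 5 stages with 2 replicates each, named A and B. Subconfluent and confluent cells were kept in growth medium, and the 24 h, 14 d and 21 d cells were kept for those times in differentiation medium, with β-glycerophosphate at 10 mM and ascorbic acid at 50 µg/ml. Each sample had between 44736156 and 162939333 counts in total. The column names give 1 pair of library indices to the subconfluent, confluent and 24 h samples and another to the 14 d and 21 d samples, so early against late stages and the first against the other index pair cannot be told apart. The labels do not say whether A and B were separate cultures, so p-values measure only the spread between these samples. All 6 osteoblast markers examined (Col1a1, Runx2, Sp7, Alpl, Bglap and Ibsp) were above 1 RPKM on average, with a summed level of 4888 RPKM or more in every sample.

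Selenbp1 encodes a methanethiol oxidase, an enzyme that turns methanethiol into hydrogen sulfide, hydrogen peroxide and formaldehyde. The protein binds selenium but holds no selenocysteine, so it is not a selenoprotein in the strict sense. Selenbp2 is a close rodent paralog, first described as a liver protein that binds acetaminophen. Cgn encodes cingulin, a cytoplasmic protein of epithelial tight junctions that ties junction proteins to actin and myosin and binds activators of RhoA. Tuft1 encodes tuftelin, an acidic protein first found in developing tooth enamel and later placed at desmosomes. Gm15264 is annotated as an unprocessed pseudogene, a gene copy that keeps its introns.

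The genes run along the chromosome in the order Tuft1, Selenbp2, Gm15264, Cgn and Selenbp1. Selenbp2 (ENSMUSG00000068877, chr3:94693556-94704413) and Selenbp1 (ENSMUSG00000068874, chr3:94933056-94944758) lie on the plus strand, 228.6 kb apart. Tuft1 (ENSMUSG00000005968, chr3:94612757-94658872), Gm15264 (ENSMUSG00000081355, chr3:94720023-94758116) and Cgn (ENSMUSG00000068876, chr3:94760069-94786492) lie on the minus strand. Gm15264 and Cgn therefore sit between the Selenbp copies. Beside them, BC021767 (chr3:94661830-94670696, minus strand) is an annotated pseudogene between Tuft1 and Selenbp2.

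Transcript sequences of GENCODE vM21 on GRCm38 show where a single read of 51 bases, the length used here, can be given to 1 gene. Reads came in pairs, and a mate outside a shared stretch can also tell copies apart, which these windows do not count. The annotated transcripts of Selenbp1 and Selenbp2 each have 12 exons and a coding sequence of 1416 bases, and 1687 of the 1712 bases of Selenbp1 matched Selenbp2 (98.5%). Their least alike coding exon, exon 5, has 4 mismatches in 121 bases, shown here in capitals because reads over these bases tell the copies apart.

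Selenbp1 exon 5, chr3:94937955-94938075, plus strand: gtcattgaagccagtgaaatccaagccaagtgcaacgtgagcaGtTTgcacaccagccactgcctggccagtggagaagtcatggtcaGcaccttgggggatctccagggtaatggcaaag
Selenbp2 exon 5, chr3:94698043-94698163, plus strand: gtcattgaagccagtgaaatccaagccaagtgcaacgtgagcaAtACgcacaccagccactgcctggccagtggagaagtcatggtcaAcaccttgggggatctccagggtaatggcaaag

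Exon 10 is identical in both copies over its 93 bases, so a read that lies wholly inside it fits both. Its sequence is given once, at the Selenbp1 position, and occurs unchanged in Selenbp2 at chr3:94703487-94703579.

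Selenbp1 exon 10, chr3:94943839-94943931, plus strand: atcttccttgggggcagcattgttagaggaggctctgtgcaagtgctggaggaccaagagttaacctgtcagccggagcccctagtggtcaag

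Of the 1662 windows of 51 bases in the Selenbp1 transcript, 857 occurred unchanged in Selenbp2 (51.6%), which is 51.3% of the windows of Selenbp2. Gm15264 was a partial copy of Tuft1, not of Selenbp1 or Selenbp2. Its 6 exons matched exons 1 to 6 of Tuft1, and 495 of its 502 bases were identical. Of its 452 windows 223 were shared with Tuft1 (49.3%), which is 8.64% of the windows of Tuft1. Exon 3, with 4 of the 7 mismatches, is shown for that reason, with the mismatches in capitals.

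Tuft1 exon 3, chr3:94638925-94639026, minus strand: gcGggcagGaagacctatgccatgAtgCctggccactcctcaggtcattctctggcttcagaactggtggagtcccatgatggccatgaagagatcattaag
Gm15264 exon 3, chr3:94732960-94733061, minus strand: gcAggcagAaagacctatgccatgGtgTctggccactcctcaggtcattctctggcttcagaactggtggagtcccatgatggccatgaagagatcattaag

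BC021767 was likewise a partial copy of Cgn. Its 11 exons matched exons 11 to 21 of Cgn, and 967 of its 1666 windows were shared (58%), which is 19.7% of the windows of Cgn. Exon 17 of Cgn stands for the stretches that are identical in both, here 84 bases that occur unchanged in BC021767 at chr3:94663736-94663819.

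Cgn exon 17, chr3:94763188-94763271, minus strand: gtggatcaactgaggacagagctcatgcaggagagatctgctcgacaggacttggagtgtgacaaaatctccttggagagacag

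No gene outside these pairs shared a window with any of the 6 transcripts, among 141767 annotated transcripts searched. Tuft1 and BC021767 lie on one side of Selenbp2, and their partners Gm15264 and Cgn lie on the other, towards Selenbp1.

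**Figure D1:**
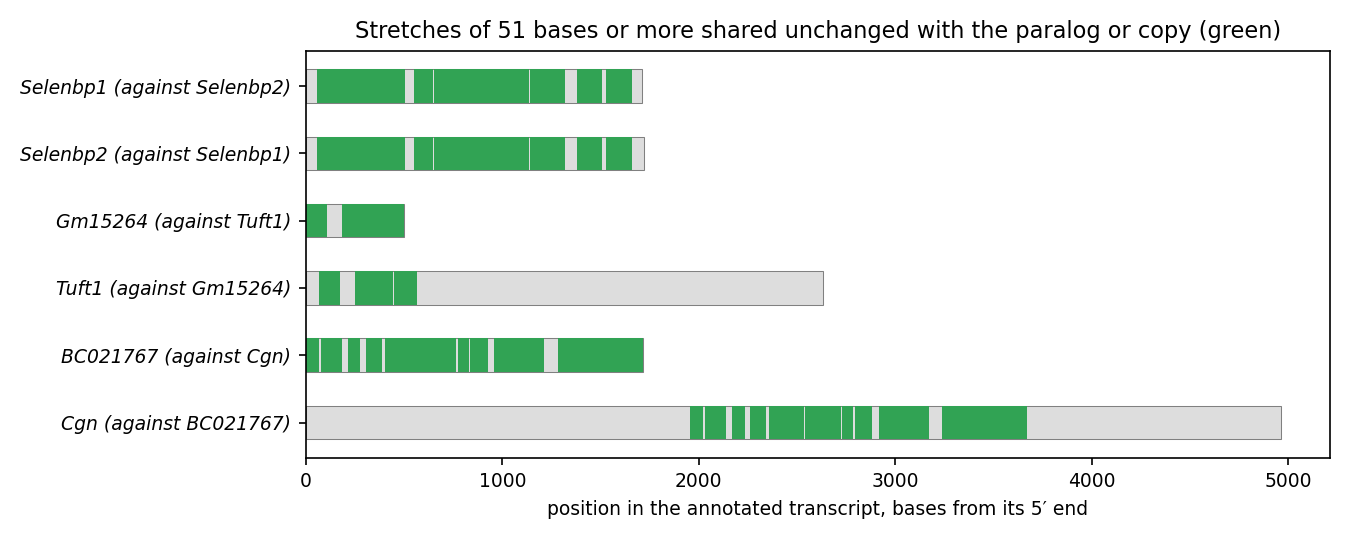
Annotated transcripts drawn to scale, in bases from the 5′ end, with the stretches of at least 51 bases that occur unchanged in the paralog or copy in green. Green covers most of Selenbp1, Selenbp2, Gm15264 and BC021767, the start of Tuft1 and the middle of Cgn.

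The bases before the start of Selenbp1 and Selenbp2 were compared because both transcripts had similar levels across the stages. RefSeq promoter windows on GRCm38 were given for 3 of the 5 genes, Selenbp1, Selenbp2 and Cgn. Of 262 aligned positions in the 250 bases before the RefSeq start, 223 were identical (85.1%). Capitals mark positions that differ or that have no counterpart within these windows. The windows end at chr3:94933082 for Selenbp1 and 94693572 for Selenbp2, past the GENCODE gene starts at 94933056 and 94693556. They thus hold some annotated gene bases and end at unequal points, so gaps at their ends can come from the window edges.

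Selenbp1 promoter, chr3:94932833-94933082, plus strand: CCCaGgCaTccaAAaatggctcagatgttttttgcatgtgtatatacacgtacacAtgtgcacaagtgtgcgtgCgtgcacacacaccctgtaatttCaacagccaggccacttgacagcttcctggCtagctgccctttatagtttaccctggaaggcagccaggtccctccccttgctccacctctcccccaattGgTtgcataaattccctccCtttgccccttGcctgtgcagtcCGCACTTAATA
Selenbp2 promoter, chr3:94693323-94693572, plus strand: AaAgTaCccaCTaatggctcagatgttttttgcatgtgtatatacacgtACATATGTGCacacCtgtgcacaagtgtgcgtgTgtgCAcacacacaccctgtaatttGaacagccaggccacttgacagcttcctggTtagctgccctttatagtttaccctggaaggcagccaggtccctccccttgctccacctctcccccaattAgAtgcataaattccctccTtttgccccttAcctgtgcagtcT

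The windows of 300 bases, with the 50 bases after the start, were searched on both strands for TGTGGT (the Runx core), TGANTCA (AP-1), TGACGTCA (CRE), CACGTG (an E-box), GGGCGG (a GC box) and TGACNNNGC (an antioxidant element). None of these letters occurred in the Selenbp1 or Selenbp2 window. The Cgn window held CACGTG once and GGGCGG 6 times. These motifs occurred in 7.15% and 35.7% of the 32851 promoter windows, and a match is a description and not a binding site. The 250 bases before the RefSeq start of Cgn are shown with CACGTG in capitals.

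Cgn promoter, chr3:94786483-94786732, minus strand: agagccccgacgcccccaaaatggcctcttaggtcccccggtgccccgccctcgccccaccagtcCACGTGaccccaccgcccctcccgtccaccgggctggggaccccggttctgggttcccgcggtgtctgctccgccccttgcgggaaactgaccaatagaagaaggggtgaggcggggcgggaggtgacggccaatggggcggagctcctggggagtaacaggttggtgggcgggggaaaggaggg

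Selenbp1, Selenbp2, Gm15264 and Cgn had few or no counts in proliferating cells and 1218 or more at 14 d and 21 d, and Tuft1 had none at any stage. RPKM, reads per kilobase of gene length scaled to a library's reads, is used where levels of different genes are set side by side. The paralogs and copies share part of their sequence as shown above, so counts from the shared stretches are uncertain in their split.

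Selenbp1 had 4 and 0 counts in the subconfluent replicates A and B, 20 and 74 in confluent cells, 528 and 343 at 24 h, 8879 and 3342 at 14 d, and 3871 and 4588 at 21 d. On the RPKM scale its mean level was 0.281 ± 0.0303 in confluent cells, 2.33 ± 0.585 at 24 h, 44.2 ± 0.818 at 14 d and 37.1 ± 16.6 at 21 d (SD, n = 2). The stages from subconfluent to 14 d did not overlap, while the 21 d replicates, at 48.9 and 25.4 RPKM, lay above and below both 14 d replicates.

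Selenbp2 had 1 and 0 counts in subconfluent cells, 11 and 57 in confluent cells, 428 and 329 at 24 h, 5059 and 2231 at 14 d, and 2157 and 4739 at 21 d. Its mean level was 0.188 ± 0.0639 RPKM in confluent cells, 2.04 ± 0.272 at 24 h, 27.4 ± 3.57 at 14 d and 26.7 ± 0.748 at 21 d (SD, n = 2). The 21 d replicates, at 27.3 and 26.2 RPKM, lay between the 14 d replicates at 24.9 and 29.9 RPKM, so these stages did not differ beyond their spread.

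Cgn had 4 and 0 counts in subconfluent cells, 1 and 67 in confluent cells, 485 and 661 at 24 h, 11406 and 4616 at 14 d, and 5756 and 16605 at 21 d. Its mean level was 1.18 ± 0.314 RPKM at 24 h, 22.3 ± 1.55 at 14 d and 31.1 ± 5.09 at 21 d (SD, n = 2). Subconfluent and confluent cells overlapped, and confluent replicate B held 67 of the 68 confluent counts. The 21 d replicates, at 27.5 and 34.7 RPKM, were both above the 14 d replicates at 21.2 and 23.4 RPKM. In the single lanes of 21 d replicate B, however, Cgn stood at 12.1 and 22.3 RPKM, and in those of 14 d replicate A at 17 and 18.1 RPKM, so that these values overlapped.

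Gm15264 had no counts in subconfluent or confluent cells, 88 and 42 counts at 24 h, 5262 and 2130 at 14 d, and 1218 and 4980 at 21 d. Its mean level was 1.58 ± 0.718 RPKM at 24 h, 124 ± 8.67 at 14 d and 97.8 ± 39.1 at 21 d (SD, n = 2). Per kilobase it was thus listed above both Selenbp genes and Cgn at 14 d and 21 d, on a gene length of 496 bases. In the single lanes of 14 d replicate A, however, it stood at 67.4 and 61.9 RPKM. In lane 2 of 21 d replicate B it stood at 26.9 RPKM, below Selenbp1 at 48.5 and Selenbp2 at 27.8. The 21 d replicates, at 70.2 and 126 RPKM, overlapped the 14 d replicates at 118 and 130 RPKM.

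Tuft1, of which Gm15264 is a partial copy, was listed at 0 counts in all 10 samples, as were Gm10972, which lies inside it, and its neighbour Gm15234. On the scale of CPM, which divides counts by the total of their column, a count of 0 allows a level of up to 0.0184 to 0.0671 CPM, depending on the sample, by counting error alone. Of the 40620 genes in the table, 10933 were at 0 in every sample (26.9%). BC021767, the copy of Cgn, had at most 2 counts in any sample. In each of these pairs the table thus gave nearly all counts to 1 partner, the pseudogene for Tuft1 and the full gene for Cgn. How shared reads were given out is not stated in the sources used here. Of the 2581 windows of Tuft1, however, 2358 were not shared, and a read from these can be told apart from Gm15264.

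**Figure D2:**
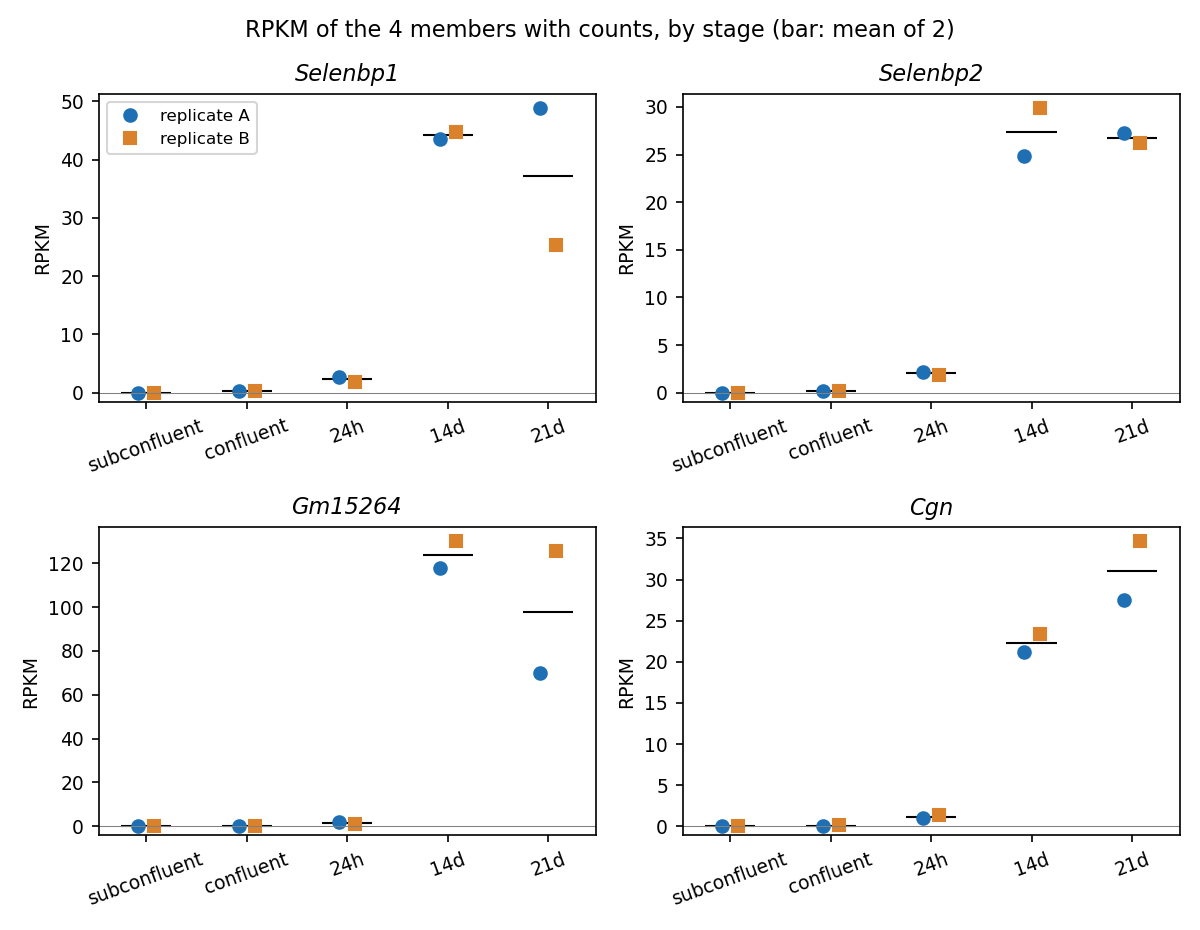
RPKM of Selenbp1, Selenbp2, Gm15264 and Cgn in each replicate (circle A, square B) over the 5 stages, with the mean of 2 as a bar. The levels at 14 d and 21 d stand far above the earlier stages, and at 21 d Selenbp1 is higher in replicate A (48.9 RPKM) than in B (25.4 RPKM) while Gm15264 is higher in B (126 RPKM) than in A (70.2 RPKM).

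The steps were followed from stage to stage in edgeR's quasi-likelihood fit of all 10 samples. A gene was called where its level differed by more than 2-fold at a Benjamini-Hochberg adjusted p below 0.05. Of the 5 genes, 4 were tested and Tuft1 did not pass the filter on low counts. The members were chosen with these values known, so their changes and calls are a description without p-values, and nothing is read from the counts of calls.

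In confluent against subconfluent cells 2 of the 4 were called, Selenbp1 and Selenbp2, both higher, beside 1.43% of all 20808 genes tested, or 1% called higher. In 24 h against confluent cells all 4 were called higher, beside 2.13% of all genes called, or 1.76% called higher. Selenbp1 was higher by a log2 fold change of 3.12 (standard error 0.40), Selenbp2 by 3.43 (0.25) and Cgn by 4.16 (0.62). Without confluent replicate B, which held all but 1 of the confluent counts of Cgn, its log2 fold change was 7.89. For Gm15264, with 130 counts at 24 h and none in confluent cells, the pooled level was at least 36.6-fold higher, taking 3 counts over the confluent group as the floor. These stages share an index pair. With only these 2 groups in the fit, edgeR called 0 of all genes here (lowest adjusted p = 0.074), with 1824 at an unadjusted p under 0.05, and DESeq2 on all samples called 688.

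In 14 d against 24 h, which differ in index pair, all 4 were called higher, beside 5.98% of all genes called, or 4.47% called higher. The log2 fold change was 4.36 (standard error 0.39) for Selenbp1, 3.87 (0.23) for Selenbp2, 4.38 (0.56) for Cgn and 6.40 (0.50) for Gm15264. Gm15264 had the largest fold of the 4 at this step in the counts as deposited.

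In 21 d against 14 d, within an index pair, none of the 4 was called, beside 3.97% of all genes called, or 1.52% called higher. The log2 fold change was -0.33 (standard error 0.33) for Selenbp1, -0.11 (0.21) for Selenbp2, 0.41 (0.49) for Cgn and -0.41 (0.39) for Gm15264. With the 2 lanes added up instead of merged, the value of Cgn was -0.08 and that of Selenbp1 was 0.04, so both signs turned.

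Over the whole course, in 21 d against subconfluent cells, all 4 were called higher, beside 27.6% of all genes called, or 16.3% called higher. Pooled over replicates and scaled to total counts, Selenbp1 was 2393-fold higher (95% interval 934 to 8785), Selenbp2 7804-fold (1400 to 308281) and Cgn 6326-fold (2470 to 23220). These intervals are exact and cover counting error only, and their width comes from the 4, 1 and 4 counts in subconfluent cells, all of them in replicate A. In edgeR's fit the log2 fold changes were 11.51, 12.78 and 12.66, but 15.42, 14.95 and 16.57 without that replicate. Gm15264 was at least 2338-fold higher against a floor of 3 counts over the subconfluent group. In 14 d against confluent cells all 4 were called higher as well, beside 13.0% of all genes called, or 9.15% called higher, with pooled ratios of 149 (122 to 184) for Selenbp1, 123 (96.8 to 158) for Selenbp2 and 270 (213 to 348) for Cgn. The ratio of Cgn rests on confluent replicate B, and in edgeR's fit its log2 fold change was 8.54, but 12.26 without that replicate.

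Reads shared by the Selenbp copies were examined through the split of their counts. Of the counts on Selenbp1 and Selenbp2 together, Selenbp2 took 35.5% in confluent replicate A (exact 95% interval 19.2 to 54.6) and 43.5% in B (34.9 to 52.4). At 24 h it took 44.8% (41.6 to 48) and 49% (45.1 to 52.8), and at 14 d 36.3% (35.5 to 37.1) and 40% (38.7 to 41.3). At 21 d the mean share was 43.3 ± 10.6% (SD, n = 2), with Selenbp1 1.79 times Selenbp2 in replicate A and 0.968 times in B. In the merged column the share was lower in both 14 d samples than in both 24 h samples, but with the lanes of 14 d replicate A added up it was 51.9% (51 to 52.8), above both, so the direction between these stages turned with the column. The 21 d samples fell on either side of the 14 d samples in the merged columns. With Gm15264 in the sum, the mean share of Selenbp2 was 43.6 ± 3.61% at 24 h, 27.6 ± 1.91% at 14 d and 31.4 ± 2.33% at 21 d (SD, n = 2). Gm15264 shared no window of 51 bases with Selenbp1 or Selenbp2, so the sum without it is the one that follows the sequences.

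The libraries of 14 d replicate A and 21 d replicate B were each sequenced in 2 lanes, and the table holds both lanes and a merged column. The lanes are repeat runs of 1 library and not replicates of a stage. In 21 d replicate B, lane 2 over lane 1 in CPM was 1.8 for Selenbp1, 1.74 for Cgn and 0.204 for Gm15264, while it was 1.02 for Selenbp2.

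In 14 d replicate A, Selenbp1 had 3411 counts in lane 1, 1863 in lane 2 and 8879 in the merged column, 1.68 times the lane sum of 5274. Selenbp2 had 3954, 1736 and 5059, which is 0.889 times its lane sum. Gm15264 had 2040, 890 and 5262, or 1.8 times the lane sum, and Cgn had 6215, 3137 and 11406, or 1.22 times. In this library the merged column held more counts on Selenbp1, Gm15264 and Cgn and fewer on Selenbp2 than both lanes together.

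In 21 d replicate B, Selenbp2 had 38.7 and 39.5 CPM in the lanes and 39.8 in the merged column. Selenbp1 had 38.3 in lane 1, 69.1 in lane 2 and 38.5 merged. Gm15264 had 41.5, 8.42 and 41.8. Cgn had 48.4, 84.3 and 139.3, and its merged count of 16605 was 2.6 times the lane sum of 6395. Selenbp2 was level over the columns, and Selenbp1, Gm15264 and Cgn were not.

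**Figure D3:**
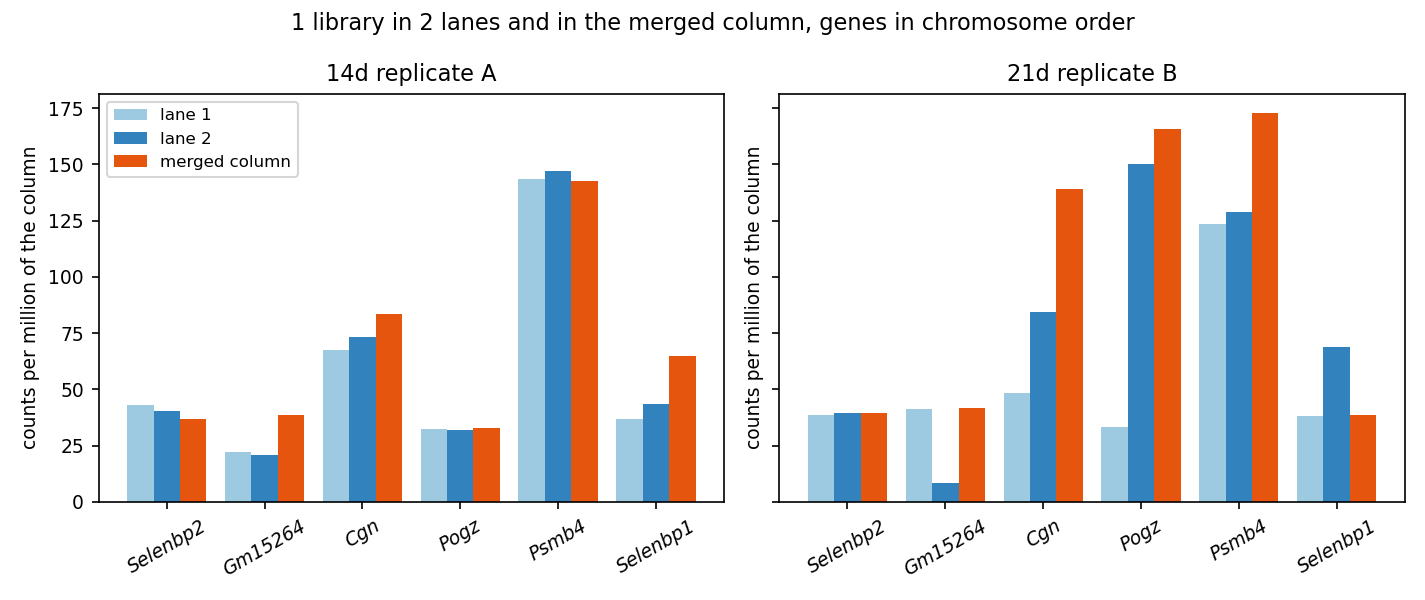
CPM in lane 1, lane 2 and the merged column for 14 d replicate A and 21 d replicate B, with genes in chromosome order and bars from 0. In 21 d replicate B the 3 columns are level for Selenbp2 (38.7, 39.5 and 39.8) and unequal for Gm15264, Cgn, Pogz and Selenbp1.

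The shares moved with the column. In 14 d replicate A, Selenbp2 took 53.7% (exact 95% interval 52.5 to 54.8) of the counts on both Selenbp genes in lane 1, 48.2% (46.6 to 49.9) in lane 2 and 36.3% in the merged column. The intervals of the lanes and of the merged column did not overlap, and they cover counting error only. In 21 d replicate B the share was 50.2% (49.1 to 51.4) in lane 1 and 50.8% (49.8 to 51.8) merged, but 36.4% (34.2 to 38.6) in lane 2. The summed level of Selenbp1 and Selenbp2 in 14 d replicate A was 80.0 and 84.0 CPM in the lanes and 101.9 merged. In 21 d replicate B that sum was 77.0 and 108.6 in the lanes and 78.3 merged. The ratio of Cgn to this sum was 0.844 and 0.872 in the lanes of 14 d replicate A and 0.818 merged, and 0.629, 0.776 and 1.78 in 21 d replicate B. The higher level of the sum at 14 d and 21 d than at 24 h was seen in every column, since its lowest value was 77.0 CPM at 21 d and 80.0 at 14 d, against 7.02 and 5.80 at 24 h.

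The unequal counts were found from Selenbp2 to Selenbp1 and not in the nearest genes outside that had enough counts. The genes inside include Selenbp1, Selenbp2, Gm15264 and Cgn, chosen with their levels known, so the numbers below are a description. Among genes with at least 50 counts over both lanes of 21 d replicate B, 4 of the 8 genes from Selenbp2 to Selenbp1 differed by more than 2-fold between lanes, beside 3.08% of 16638 genes, and in 4 of the 8 the merged count was more than 1.5-fold from the lane sum, beside 0.986%. Of the 16 nearest genes outside with that depth, 8 on each side, none passed either limit, and their merged counts were 0.994 to 1.02 times the lane sums. Tuft1, Gm10972, Gm15234 and BC021767, the genes next to Selenbp2 on the outside, had too few counts to be judged. In 14 d replicate A none of the 6 genes inside with that depth differed by more than 2-fold between lanes, beside 2.21% of 16765 genes. In 2 of the 6, Selenbp1 and Gm15264, the merged count was more than 1.5-fold from the lane sum, beside 1.49%, and in none of the 16 outside. Gm26279, also inside, fell below that depth with 0 counts in each lane, but had 877 in the merged column. Read alignments were not used here, and how reads shared by the copies were placed on the genes between them was not tested.

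**Figure D4:**
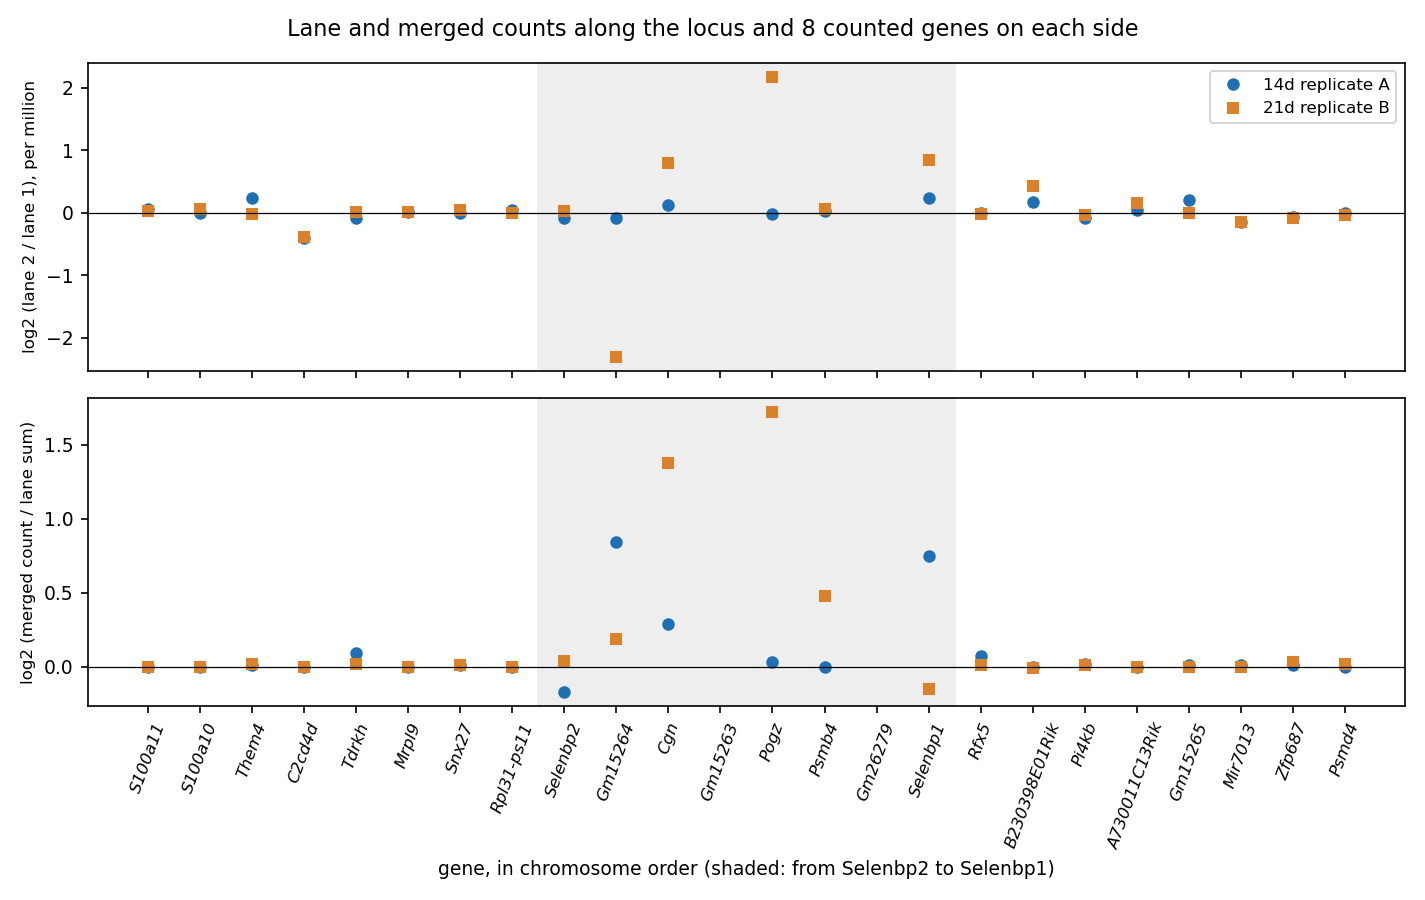
Log2 ratio of lane 2 to lane 1 in CPM (top) and of the merged count to the lane sum (bottom) for genes in chromosome order, with the stretch from Selenbp2 to Selenbp1 shaded. Gm15263 and Gm26279, at 0 in a lane, are not drawn. Ratios outside the shading lie between -0.40 and 0.43 in the top panel and close to 0 in the bottom panel, while inside Gm15264 reaches -2.30 and Pogz 2.17 between the lanes of 21 d replicate B.

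The annotated genes between Tuft1 and Selenbp1 other than the 5 were taken by position, so they were tested. Of 8 such neighbours 7 were in the count table and 4 passed the filter: Gm15263, a processed pseudogene, Pogz, a chromatin-bound zinc finger protein, Psmb4, a subunit of the proteasome core, and Gm26279, annotated as a small nuclear RNA. All 4 lie between Cgn and Selenbp1. Of these, 0 were called at the steps from subconfluent to confluent cells, on to 24 h and on to 14 d, or in 14 d against confluent cells, by edgeR's quasi-likelihood test, beside 1.43%, 2.13%, 5.98% and 13.0% of all genes called. With 4 genes tested, 0 is close to what these shares give. At an unadjusted p under 0.05 the numbers were 0, 0, 2 and 1. DESeq2 called 0, 0, 1 and 1 in the same order.

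Pogz had 33.1 and 31.1 CPM in subconfluent cells, 30.9 and 26.9 in confluent cells, 19.4 and 32.4 at 24 h, 32.7 and 31 at 14 d, and 63.1 and 165.9 at 21 d. Both 21 d replicates were above the other 8 samples, and they differed from each other more than any other pair. Pogz was called in 21 d against 14 d (log2 fold change 1.76, standard error 0.40, adjusted p = 0.036 in edgeR's quasi-likelihood test) and in 21 d against subconfluent cells (2.00, standard error 0.41, adjusted p = 0.0052). In lane 1 of 21 d replicate B it stood at 33.3 CPM and in lane 2 at 150.4. With the first lane alone in place of the merged columns, the log2 fold changes were 0.52 (adjusted p = 0.33) and 0.75 (adjusted p = 0.06), and without 21 d replicate B they were 0.89 (adjusted p = 0.078) and 1.12 (adjusted p = 0.007). The call in 21 d against 14 d was also lost when either subconfluent, confluent or 14 d replicate was left out (adjusted p = 0.07 to 0.22).

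Gm15263 had no more than 1 count in any sample before 21 d apart from 94 counts in 24 h replicate B, and 648 and 1660 counts at 21 d. It was called in 21 d against subconfluent cells (adjusted p = 0.012 in edgeR's quasi-likelihood test), at least 871-fold higher against a floor of 3 counts over the subconfluent group, a call lost without subconfluent replicate A (adjusted p = 0.061). Lane 1 of 21 d replicate B held none of its counts, lane 2 held 210 and the merged column 1660. Gm26279 had 877 and 355 counts at 14 d, 324 and 0 at 21 d and none before, while both lanes of 14 d replicate A had none and lane 2 of 21 d replicate B had 105, where its merged column had 0. Psmb4 had 228.3 and 238.3 CPM in subconfluent cells and 122.2 and 172.9 at 21 d, and was not called (log2 fold change -0.50, standard error 0.25, adjusted p = 0.14 in edgeR's quasi-likelihood test). The calls among the neighbours, 2 of 4 in 21 d against subconfluent cells (beside 27.6% of all genes) and 1 of 4 in 21 d against 14 d (beside 3.97%), fell to 1 and 0 with the lanes added up and to 0 and 0 with the first lane alone.

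**Figure D5:**
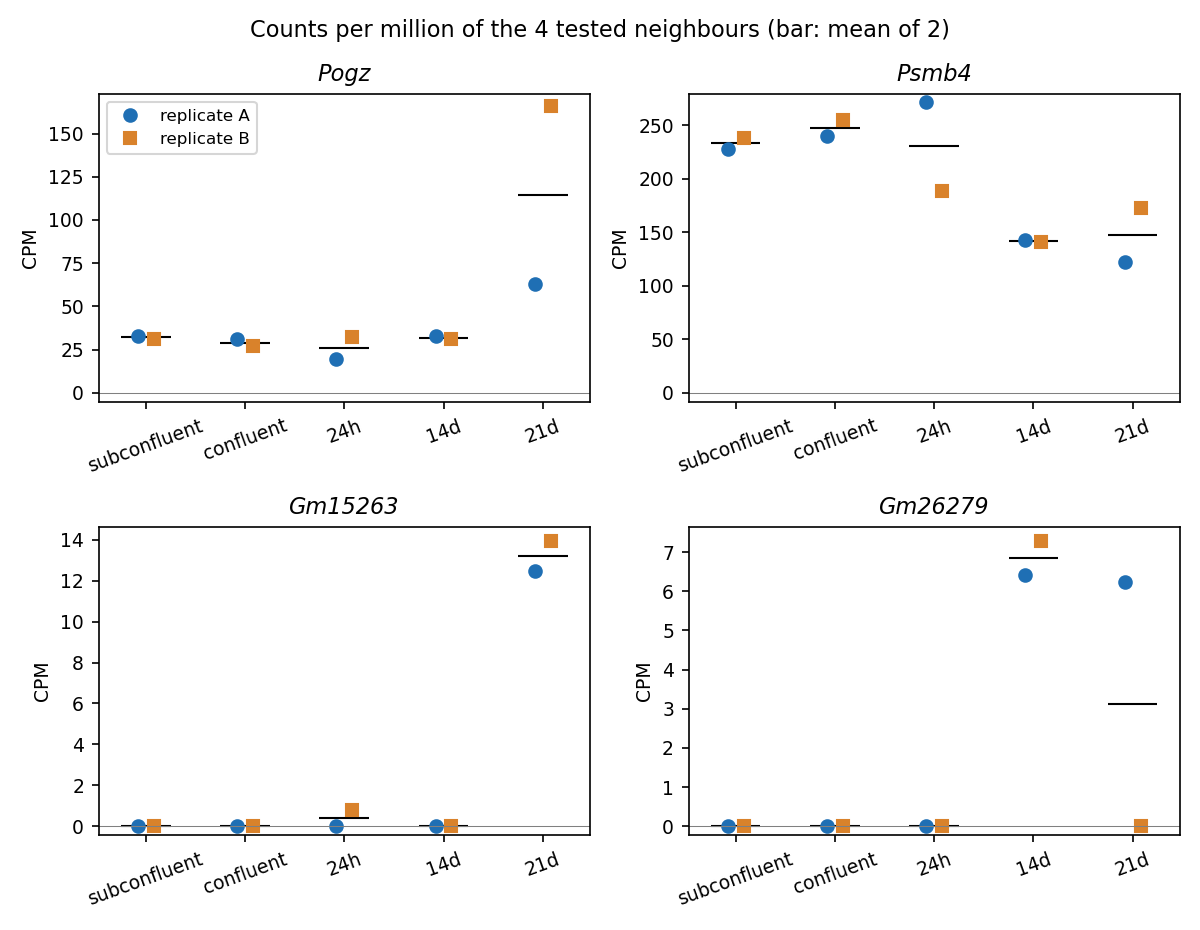
CPM of Pogz, Psmb4, Gm15263 and Gm26279 in each replicate (circle A, square B) over the 5 stages, with the mean of 2 as a bar. Pogz stands at 63.1 and 165.9 at 21 d against 19.4 to 33.1 in the other samples, and Gm26279 is at 0 in the merged column of 21 d replicate B.

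Partners of cingulin were read from a list of 27 tight junction and cingulin partner genes, of which 17 passed the filter. This list and the lists below were chosen with earlier results of these data known, so their p-values are descriptive. In 21 d against subconfluent cells 3 were higher and 3 lower in edgeR's quasi-likelihood test (35.3%, beside 27.6% of all genes), with a median log2 fold change of -0.01 beside 0.04 over all genes. DESeq2 called 3 of them and limma-trend on log2(RPKM + 1) called 2. Jam2, a junctional adhesion molecule, rose from 0.0668 and 0.0814 RPKM to 0.229 and 0.238 (log2 fold change 1.78, standard error 0.34, adjusted p = 0.0036). Amot, which encodes angiomotin, fell from 34.5 and 32.7 RPKM to 11.6 and 10.7 (-1.48, standard error 0.23, adjusted p = 0.0014). Cldn15, a claudin, had at most 0.181 RPKM in any sample and also fell (-1.35, standard error 0.44, adjusted p = 0.035).

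Arhgef2, a RhoA activator that cingulin binds, rose in 21 d against 14 d, libraries with the same indices, from 9.16 and 7.94 RPKM to 25.2 and 23.3 (log2 fold change 1.43, standard error 0.14, adjusted p = 0.0012). Arhgef18, also on the list, was not called in this step (-0.01, standard error 0.17). Cgnl1, which encodes the cingulin paralog paracingulin, fell from 15.8 and 14.5 RPKM to 7.77 and 6.85 in the same step (-1.12, standard error 0.19, adjusted p = 0.01). Cgnl1 had 6.49 and 6.10 RPKM in subconfluent cells, where Cgn had 0.00649 and 0.

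Of 10 epithelial markers (Epcam, Cdh1, Krt8, Krt18, Krt19, Cldn3, Cldn4, Cldn7, Esrp1 and Grhl2), 3 were at 0 in all 10 samples and none averaged over 1 RPKM. Their summed level was 0.0464 to 0.307 RPKM in single samples, and at 21 d 0.229 to 0.307, beside a Cgn level of 27.5 and 34.7 RPKM. The summed level was 0.00821 to 0.108 RPKM for 4 endothelial markers, 0.0224 to 1.09 for 5 adipocyte markers with the highest values at 24 h, 2.35 to 3.98 for 4 macrophage markers and 33.1 to 211 for 4 chondrocyte markers, nearly all from Col2a1.

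Some of these markers were called higher at a step where Selenbp1, Selenbp2, Gm15264 and Cgn were, but did not follow them at every step. The chondrocyte markers that passed the filter were the cartilage collagens Col2a1 and Col9a1. By edgeR's quasi-likelihood test both were called higher in 14 d against 24 h. Both were called lower in 21 d against 14 d, where no member was called. In 24 h against confluent cells, where all tested members were called higher, Col2a1 had a log2 fold change of -0.92 and was not called. Col9a1 went the other way there (3.83, standard error 0.73) and was not called either, at 0.00468 and 0.00503 RPKM at 24 h. Col2a1 had 157.4 and 155.8 RPKM in subconfluent cells, 33.1 and 44.9 at 24 h, 201.7 and 210.4 at 14 d, and 73 and 78.37 at 21 d. Col9a1 was listed at 0 in subconfluent and confluent cells and had 0.451 and 0.585 RPKM at 14 d and 0.125 and 0.129 at 21 d. The only epithelial marker that passed the filter, Cdh1, which encodes E-cadherin, was called higher in 14 d against 24 h (log2 fold change 1.73, standard error 0.45, adjusted p = 0.039 in edgeR's quasi-likelihood test) and in 21 d against subconfluent cells (1.28, standard error 0.43, adjusted p = 0.041), at no more than 0.264 RPKM in any sample. Fabp4, the adipocyte marker tested, was called higher in 24 h against confluent cells (log2 fold change 3.63, adjusted p = 0.035 in the same edgeR test). It was also higher in 21 d against subconfluent cells (3.48, adjusted p = 0.014) and lower in 14 d against 24 h (-2.63, adjusted p = 0.038). Its level was at most 1.06 RPKM in any sample. Of 2 endothelial markers tested, 1 was called higher, only in 21 d against subconfluent cells. The part of other cell types in the levels of Cgn and the Selenbp genes was not tested.

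Hydrogen sulfide and methanethiol metabolism, in which Selenbp1 acts, was read from 14 genes, of which 13 were tested. In 21 d against subconfluent cells 3 were higher and 3 lower in edgeR's quasi-likelihood test (46.2%, beside 27.6% of all genes), with a median log2 fold change of -0.01. Cdo1, cysteine dioxygenase, rose from 0.821 and 1.02 RPKM to 9.48 and 11.8 (log2 fold change 3.67, standard error 0.19, adjusted p = 1.1e-05), and stood at 31.9 and 36.7 RPKM at 14 d. Suox, sulfite oxidase, rose from 3.70 and 3.70 RPKM to 9.58 and 10.3 (1.54, standard error 0.13, adjusted p = 6.9e-05). Cth, which makes hydrogen sulfide from cysteine, fell from 0.626 and 0.789 RPKM to 0.165 and 0.194 (-1.84, standard error 0.29, adjusted p = 0.0015), and Cbs, another source of hydrogen sulfide, had at most 0.0885 RPKM in any sample and was also called lower (-2.93, standard error 0.89, adjusted p = 0.028). Mpst, also on the list, had 20.4 to 32.7 RPKM in single samples. It was 1.44-fold higher (0.52, standard error 0.15), below the 2-fold limit, and so not called.

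Within the early index pair Cdo1 was called at each step, by 1.42 in confluent against subconfluent cells (standard error 0.18, adjusted p = 0.0094) and by 1.46 in 24 h against confluent cells (standard error 0.17, adjusted p = 0.0059), and in 21 d against 14 d it fell by 1.76 (standard error 0.17, adjusted p = 0.0011). Csad, the next enzyme towards taurine, rose in 24 h against confluent cells by 1.67 (standard error 0.13, adjusted p = 0.0014). Selenbp1 and Selenbp2 were not lower at 21 d than at 14 d beyond their spread, with log2 fold changes of -0.33 and -0.11.

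Selenoproteins and genes of selenium handling were 28, of which 26 were tested, and 3 were higher and 2 lower in 21 d against subconfluent cells (19.2%, beside 27.6% of all genes). Gpx3, the secreted glutathione peroxidase, rose from 0.0323 and 0.0357 RPKM to 1.01 and 1.25 (log2 fold change 5.15, standard error 0.32, adjusted p = 1.9e-05 in edgeR's quasi-likelihood test). Selenop, the selenium carrier of plasma, rose from 1.12 and 0.887 RPKM to 12.8 and 14.0 (3.84, standard error 0.14, adjusted p = 3e-06). Txnrd1, cytosolic thioredoxin reductase, fell from 86.9 and 85.9 RPKM to 23.1 and 21.2 (-1.85, standard error 0.10, adjusted p = 1.3e-05), and Selenoh, a nuclear selenoprotein, fell from 117.2 and 132.6 RPKM to 29.5 and 34.2 (-1.85, standard error 0.23, adjusted p = 0.00046). Within index pairs Selenop rose in 24 h against confluent cells by 2.29 (standard error 0.13, adjusted p = 0.00046), and Gpx3 rose there and in 21 d against 14 d, by 1.5 and 1.65 (adjusted p = 0.028 and 0.0072). Dio3, which inactivates thyroid hormone, fell by 1.48 from subconfluent to confluent cells (adjusted p = 0.0012) and rose by 1.14 from 14 d to 21 d (adjusted p = 0.00099).

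For Tuft1, listed at 0 throughout, 16 genes of the enamel matrix and of desmosomes were listed and 4 passed the filter. These were Pkp1, Pkp2, Pkp4 and Jup, listed for desmosomes, and none was a gene of the enamel matrix. The enamel matrix genes Ambn, Enam, Amtn, Odam and Mmp20 were at 0 RPKM in every sample. In 21 d against subconfluent cells 1 was higher and 2 lower in edgeR's quasi-likelihood test (75.0%, beside 27.6% of all genes). The plakophilin Pkp1 rose from 0.00194 and 0.00644 RPKM to 0.114 and 0.122 (log2 fold change 5.16, standard error 0.88, adjusted p = 0.0033), Pkp2 fell from 4.19 and 3.58 RPKM to 0.401 and 0.430 (-3.11, standard error 0.18, adjusted p = 1.6e-05) and Pkp4 fell from 11.8 and 10.5 RPKM to 3.52 and 3.61 (-1.53, standard error 0.12, adjusted p = 6.0e-05). Jup, plakoglobin, had 0.569 and 0.715 RPKM in subconfluent cells and 0.566 and 0.669 at 21 d, and it was not called.

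Patterns over the 10 samples were compared by Pearson's r of log2 CPM among the 12081 genes that averaged 5 CPM or more, as a description. Selenbp1 and Selenbp2 had r = 0.997, Selenbp2 and Cgn 0.981, Selenbp1 and Cgn 0.973, and Gm15264 with the other 3 0.949 to 0.966. The points share the step between the index pairs, and the paralogs share reads. The genes most like Selenbp2 were Rasgrp2 (r = 0.998), Selenbp1 (0.997), Agt (0.996), Cdc42ep3 (0.995) and Ak3 (0.994), and those most like Cgn were Ankrd46 (0.996), Thtpa (0.992), Pyroxd2 (0.991), Ackr4 (0.988) and Bnip3l (0.986). Of these, Agt, which encodes angiotensinogen, went from a mean of 1.04 RPKM in subconfluent cells to 6.05, 30.6, 105 and 104 RPKM at the later stages, and Ankrd46 from 20.2 to 31.7 RPKM. None of either 5 remained among the 5 most alike when Spearman's rho was used or when the 24 h samples were left out.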

How the data were processed

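The authors deposited 2 tables of 40620 and 40603 Ensembl genes: raw read counts per gene without normalization, and RPKM values, which the authors scaled to gene length and to library size. The submitters' notes name TopHat2 2.0.9, FastQC, R 3.0.1 and mm10, for reads of 51 bases. The counting tool, its strand setting and its handling of reads that fit several genes are not given in the sources used here. For the 2 libraries with 2 lanes the merged column was used, and its making is not given.

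CPM values were computed with the total of each column. All 10 samples were fitted in edgeR 4.0.16 (R 4.3.3) with TMM factors and filterByExpr, which kept 20808 genes, and 6 stage comparisons were tested with the quasi-likelihood test and Benjamini-Hochberg adjustment over all of them. Standard errors are the log2 fold change over the square root of F. The fit was tested on simulated data first. Alternatives were other normalizations and filters, DESeq2 1.42.0, limma 3.58.1 on log2(RPKM + 1) and log2(RPKM + 0.1), other sample sets, a replicate block, other lane columns and each replicate left out. Intervals are exact and, like the floor of 3 counts, cover counting error only.

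A symbol in GENCODE vM21 (GRCm38) was found for 39547 identifiers, and transcripts came from the same release. Named genes are the 5 members, tested genes between them, of each list the 4 largest changes over the whole course plus up to 3 called within an index pair, and the 5 most alike in pattern. A result for 1 listed gene is not reported here. Members and lists were chosen with earlier results of these data known, so p-values of listed genes are descriptive.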

Additional observations from a re-analysis of the deposited data

How the results depend on the processing

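Of Selenbp1, Selenbp2, Gm15264, Cgn and the 4 neighbours tested, no called difference changed sign. Differences that were not called did, among them these: in 21 d against 14 d Cgn ran from -0.11 to 0.57 (log2), Selenbp1 from -0.87 to 0.3, Selenbp2 from -0.26 to 0.05 and Gm26279 from -12.65 to 0.68, and in confluent against subconfluent cells Cgn was 3.71, but -0.02 without confluent replicate B. Selenbp1, Selenbp2, Gm15264 and Cgn remained more than 2-fold higher in 14 d against 24 h, 14 d against confluent cells and 21 d against subconfluent cells in all but 1 alternative, at least 10 counts in every sample, where none of the 4 passes the filter and the number is 0 in each comparison. In confluent against subconfluent cells 3 were more than 2-fold higher, and limma-trend on log2(RPKM + 1) gave 0. The count of all genes called there was 297, with 107 to 485 when 1 replicate was left out, 495 without the 24 h samples, 463 in DESeq2 and 129 in limma-trend on log2(RPKM + 1). In 24 h against confluent cells it was 443, with 141 to 2388, 688 in DESeq2, 178 in limma-trend on log2(RPKM + 1), and 0 when edgeR was given only these 2 groups (1824 at an unadjusted p under 0.05). In 14 d against 24 h it was 1245, with 627 to 3055, 319 with only the 2 groups, 732 at 10 counts in every sample, and 511 and 815 in limma-trend on log2(RPKM + 1) and log2(RPKM + 0.1). In 21 d against 14 d it was 826, with 544 to 1044 and 543 in limma-trend on log2(RPKM + 1), which gave 3403 in place of 5740 in 21 d against subconfluent cells and 1352 in place of 2705 in 14 d against confluent cells, the latter 1784 at 10 counts in every sample.

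Of the neighbours, 1 was called in 21 d against 14 d. It was 0 to 2 when 1 replicate was left out, 2 with DESeq2 size factors, upper-quartile factors, no filter, limma-trend on log2(RPKM + 1), no 24 h samples or only the 2 groups, and 0 with the sum of the lanes, the first lane or the replicate block. In 21 d against subconfluent cells 2 were called, with 1 to 3 when 1 replicate was left out, 1 with the sum of the lanes or 10 counts in every sample and 0 with the first lane. Tight junction genes called there were 6, but 3 in DESeq2, at 10 counts in every sample and in limma-trend on log2(RPKM + 0.1), and 2 in limma-trend on log2(RPKM + 1). The cause of these changes was not tested.

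The share of Selenbp2 in the counts of Selenbp1, Selenbp2 and Gm15264 in 14 d replicate A was 26.3%, but 42% and 38.7% in the lanes and 41% in their sum. The mean share was 38.2% at 14 d and 43.3% at 21 d without Gm15264, and with RPKM in place of counts 34.8% at 24 h, 14.0% at 14 d and 16.7% at 21 d.

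Samples with the same letter did not deviate together (10 pairs of stages, r from -0.18 to 0.1). Whether the letters pair cultures cannot be told from these values. With the replicate block 213, 320, 1039, 731, 5550 and 2502 genes were called in the 6 comparisons, and apart from the neighbours in 21 d against 14 d no count among those given here moved by over 1.5 times.

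With 2 replicates a stage and at most 4 counts of each of the 4 genes in a subconfluent sample, depth limits how well the size of the changes against that stage is measured.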
